A study of Homo sapiens with 2 samples.

Results

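The PAX5 gene and the stretch upstream of it carried 29 of the 21361 PAX5 peaks called in NALM6, an established human leukaemia line of early B-lineage cells. A peak is a stretch of genome where DNA recovered with an antibody to PAX5 exceeds input DNA. The 29 were all those with a summit on chromosome 9 between 36.8 and 37.4 Mb of hg19. In this build the PAX5 body lies from 36.833 to 37.034 Mb on the minus strand, so that the gene is read towards lower coordinates from a start site near 37.034 Mb. These borders are known to the nearest 1 kb, and distances from them carry an uncertainty of 0.5 kb. The rule for the window uses positions and no measured value, although the window was chosen with earlier results of these data known.

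PAX5 is a transcription factor with a paired DNA-binding domain that commits progenitors to the B lineage and holds B cells in it. It activates B-cell genes and silences genes of other lineages, and its own gene is a frequent site of deletion, mutation and rearrangement in B-cell precursor leukaemia. Transcription of PAX5 starts from alternative promoters, and enhancers have been described both within the gene and far upstream of it. A factor bound at its own gene is a common arrangement among regulators of cell identity, but binding alone does not show regulation. ZCCHC7, which encodes a zinc-finger protein of nuclear RNA surveillance, is the next protein-coding gene upstream in RefSeq (GRCh38.p14), and MELK, a protein kinase gene, is the next past the 3′ end.

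The study used chromatin immunoprecipitation with sequencing on NALM6 cells. It holds 1 ChIP sample, for which the labels name a PAX5 antibody from Abcam (46190180 tags), and 1 input control, for which they name none (25416858 tags). Both are labelled as untreated NALM6 cells grown for 4 days in RPMI lacking phenol red, with 10% serum and 2 mM glutamine, and the control's title carries a further name, RXL, that the labels do not explain. No replicate sample was given for either, so no difference was tested. The ChIP alignment is a pool, and the number of libraries in it is not stated. All intervals below are 95% intervals of counting error, of a share of peaks or of a median over peaks. No expression, chromatin mark or contact was measured, so the name of distal enhancer for the upstream stretch could not be checked in these data.

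The widest peak of the locus, from 37033634 to 37035058, spanned the start site as placed at 37.034 Mb. Its lower border lies within the 0.5 kb uncertainty of that place. The RefSeq promoter of PAX5 is shown here because this peak lies over the start of the gene. It gives the 250 bases before the RefSeq start on GRCh38.p14, chr9:37034269-37034518, minus strand, 5′ to 3′, with a TATAAA match in capitals. Positions were not carried between the builds, so the letters are not placed within the peak.

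PAX5: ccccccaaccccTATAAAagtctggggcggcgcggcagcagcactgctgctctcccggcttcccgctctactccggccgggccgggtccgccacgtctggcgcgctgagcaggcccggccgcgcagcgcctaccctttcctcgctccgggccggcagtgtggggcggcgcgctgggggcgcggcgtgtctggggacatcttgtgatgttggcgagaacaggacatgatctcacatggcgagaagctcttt

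The G and C content of these bases was 69.6%, against a median of 58% over 35116 RefSeq promoters of the same length, and they held 27 CG pairs against a median of 11. The TATAAA match began 238 bases before the start, and 10.7% of the promoters held this motif on either strand. The core of the PAX5 recognition sequence, searched as GCGTGAC on both strands, was not among these letters, and 2.20% of all promoters held it. A missing match says only that these letters do not occur in this window.

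PAX5 peaks were dense over the locus and of ordinary strength. The 29 peaks amounted to 48.3 per Mb (exact Poisson interval 32.4 to 69.4), compared with 7.21 per Mb over all assembled chromosomes, a ratio of 6.70 (4.49 to 9.63). On chromosome 9 the mean was 6.49 per Mb. Both references divide by the whole span from first to last summit of a chromosome, with stretches that hold no peak included. Among 3321 windows of the same 600 kb length that held any peak, 46 held more peaks, 3 held as many and the median window held 4. On chromosome 9, 3 of 135 such windows held more.

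Fold enrichment, the authors' ratio of ChIP pileup to local control background, had a median of 3.46 over the 29 peaks and 3.89 over the whole list. The interval of the locus median from ranked values was 3.10 to 4.49, which includes the median of the list. This interval takes the 29 peaks as independent, although 9 of them lie side by side at the start site, so it does not settle a difference. A fold of at least 5 was reached by 6 of the 29, or 20.7% (Wilson interval 9.85 to 38.4), where 25% of all peaks reached it. A fold of at least 10 was reached by 1 peak, with 1.72% of all peaks at that level. Both counts were near these backgrounds. Reads at a summit are given below as counted at the ChIP's own depth. Pileup is the same reads multiplied by 0.550 to the control's depth, the scale on which the background is given. The fold is pileup plus 1 divided by background plus 1, and cannot be had from reads and background directly. The median summit held 61 ChIP reads, the same as in the whole list. The median background was 9.45 at the control's depth against 8.0 in the whole list, and its part in the folds was not tested.

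**Figure D1:**
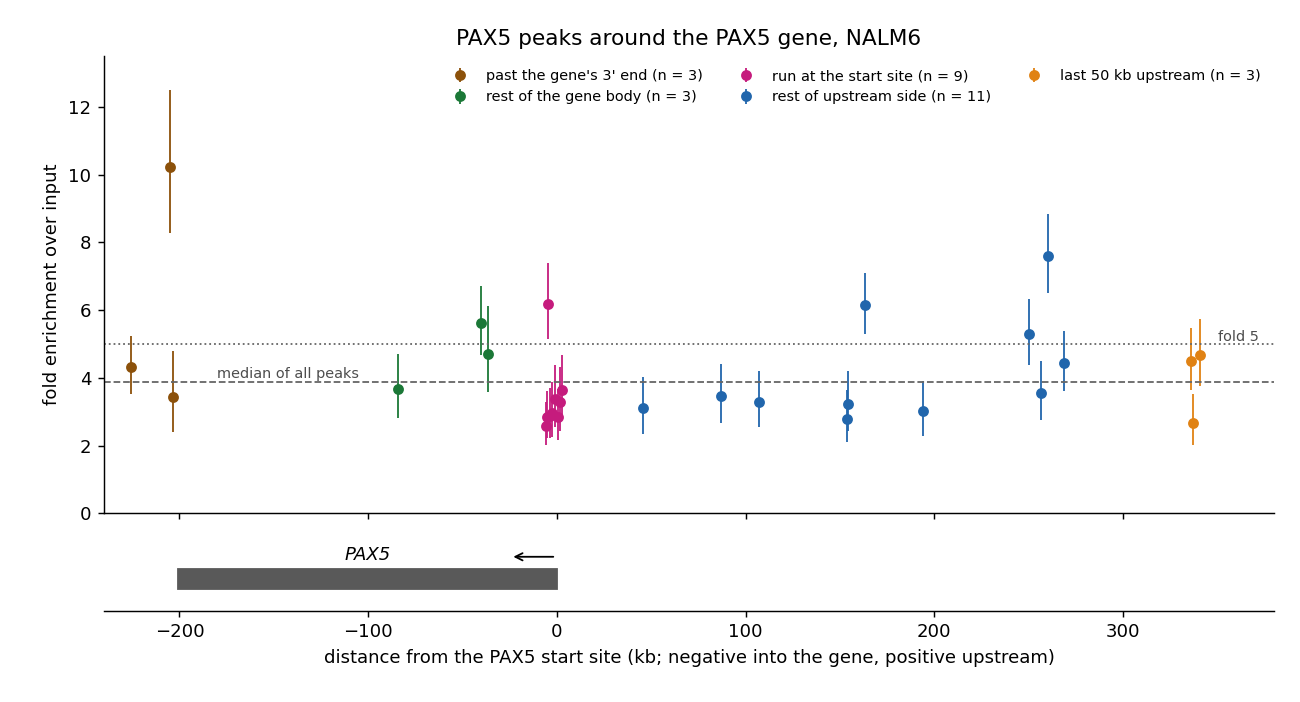
Fold enrichment of the 29 peaks (y axis) by distance of the summit from the PAX5 start site in kb (x axis), with 95% counting intervals as bars and the control background taken as fixed. The grey box is the PAX5 body and the arrow its direction. The highest peak, fold 10.2, lies just past the 3′ end, and 9 peaks crowd around the start site at folds of 2.58 to 6.19.

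The peaks fell into 3 sides of the gene. Of the 29, 9 had summits inside the body, 17 upstream of the start site and 3 past the 3′ end. The body's share was 31.0% (Wilson interval 17.3 to 49.2), and the body makes up 33.5% of the window. The upstream side held 58.6% of the peaks in 61% of the window. The stretch past the 3′ end held 10.3% of the peaks in 5.5% of the window, on 3 peaks only. With the start-site border moved 5 kb into the gene, the body's share was 17.2%, since the run at the start site straddles it. Joining peaks whose borders lay within 2000 bp left 18 separate loci, of which 14 were lone peaks, 3 were pairs and 1 was a run of 9 at the start site.

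The run at the start site held more adjacent peaks than all but 1 run of the list. It extended over 10029 bp from 37027920 to 37037948, reaching 6.08 kb into the gene and 3.95 kb upstream, and 6 of its summits lay inside the gene and 3 upstream. Its peaks covered 7290 bp, or 72.7% of the run and 46.7% of all peak length in the locus. Of 17934 runs in the whole list, a single one held more peaks, with 10 on chromosome 22 from 29187350 to 29198785, of which 55.9% was covered. With only the 3 peaks of a −log10 q of at least 5, the covered share of the run was 32.9%. By the length covered, the PAX5 run had rank 3. Both ranks depended on the gap allowed. By number of peaks the rank was 1 at 1500 bp, 3 at 3000 bp and 9 at 5000 bp, and by length covered it was 3, 5 and 7. At 1000 bp the run broke into pieces, and the piece over the start site held 4 peaks, rank 20 by number and 9 by length. At 500 bp that piece held 3 peaks, rank 28 by number with 133 other runs of the same size, and rank 13 by length. The largest distance between neighbouring borders was 1064 bp and the smallest 125 bp. The run was defined after its peaks had been seen.

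Of the 9 peaks of the run, 7 were wider than the list's median of 383 bp and 8 were below its median fold. The peaks at 37028089 and 37031317, 324 and 306 bp wide, were narrower than that median. From the gene side outwards, the peak with its summit at 37028089 had 64 ChIP reads. Its pileup of 35.2 over a background of 13.1 gave a fold of 2.58, the lowest of the locus (rank 20055 of 21361). Its neighbour at 37028669 had 65 reads, with a pileup of 35.8 over 11.9 and a fold of 2.84. The peak at 37029403 stood above both.

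This strongest peak of the run lay 4.60 kb inside the gene, from 37029121 to 37030038. It had 122 reads (exact Poisson interval 101 to 146). Its pileup of 67.1 over a background of 10.0 gave a fold of 6.19 (5.16 to 7.38), rank 2661 by fold and 1765 by −log10 q (28.7). No other peak of the run had a counting interval that reached its lower bound, the highest of their upper bounds being 4.66. The run thus held 1 summit above 8 lower ones, which had 47 to 65 reads and folds of 2.58 to 3.65.

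Further towards the start site, the peak at 37030542 had 60 reads and a fold of 2.88, and that at 37031317 had 51 reads and a fold of 2.97. The peak at 37032931 was 1021 bp wide with 53 reads, a pileup of 29.2 over a background of 7.94 and a fold of 3.37. These 3 overlapped in their counting intervals and could not be ordered at this depth.

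The peak over the start site was the widest of the locus, 1425 bp and rank 152 by width. Its summit at 37034710 held 55 reads (41.4 to 71.6), a pileup of 30.3 over a background of 10.0. Its fold was 2.84 (2.16 to 3.67), rank 18591 by fold and 16989 by −log10 q (4.28). It therefore ranked near the top of the list by extent and near its bottom by enrichment.

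Outwards of it, the peak at 37035414 was 772 bp wide with 47 reads and a fold of 3.28. The outermost, at 37036791, was 1358 bp wide (rank 183) with 60 reads, a fold of 3.65 and a pileup of 33.0 over a background of 8.33. The control background over the 9 summits ran from 7.20 to 13.1 with a median of 10.0, which is 4.72 times the genome mean of 2.12. For all peaks this ratio was 3.78. The part of this higher background in the low folds was not tested.

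**Figure D2:**
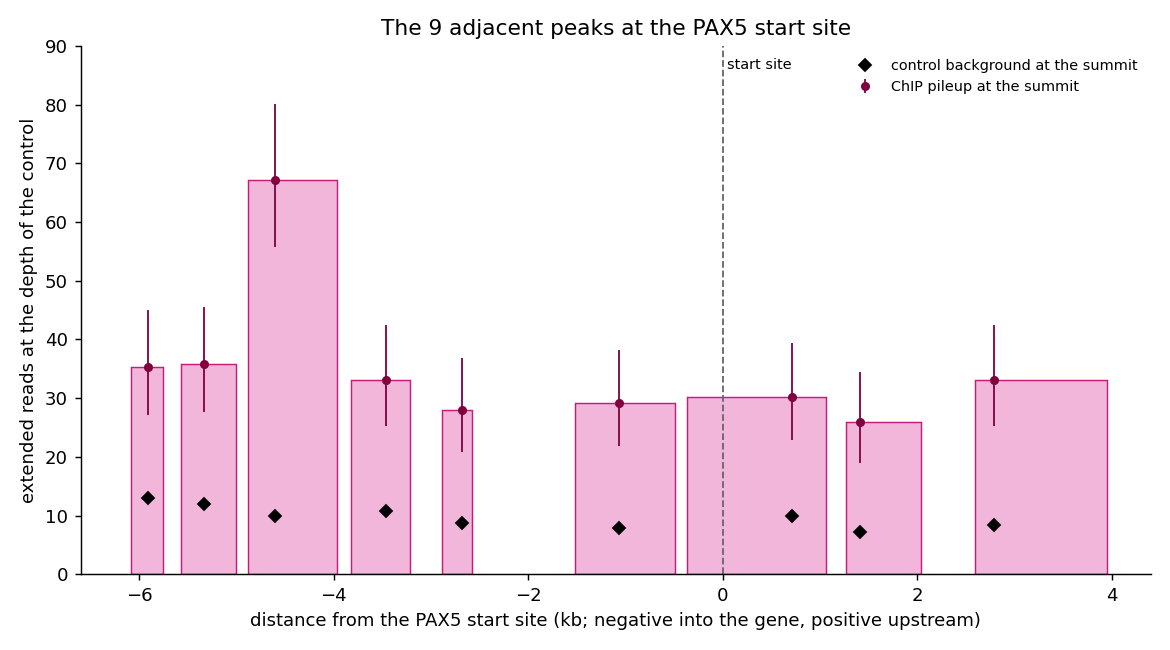
The 9 adjacent peaks at the PAX5 start site. Each box spans a peak on the x axis (kb from the start site) and rises to the pileup at its summit on the y axis (extended ChIP reads scaled to the depth of the control), points mark the summits with 95% counting intervals, and diamonds give the control background on the same scale. The peak 4.60 kb inside the gene stands at 67.1, and the other 8 stand between 25.9 and 35.8 over backgrounds of 7.20 to 13.1.

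Width and strength diverged in the 3 widest peaks of this run compared with wide peaks of the whole list. They did not diverge in its strongest peak, at 37029403, which had a fold of 6.19 and was 918 bp wide (rank 909 by width). Of all peaks, 688 (3.22%) were at least 1000 bp wide, with a median fold of 5.74 and a median of 111 reads. The 3 in the PAX5 window all belonged to the start-site run and had folds of 2.84, 3.37 and 3.65 with 53 to 60 reads. Of the 688 wide peaks, 1.74% had a lower fold than the one over the start site, 7.70% a lower fold than the one at 37032931 and 11.2% a lower fold than the one at 37036791. Low folds were also found in other large runs. The 53 runs of at least 5 peaks had a median of run medians of 3.42, and 5 of them had a median below the 2.97 of the PAX5 run. The 15301 lone peaks of the list had a median fold of 3.96.

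**Figure D3:**
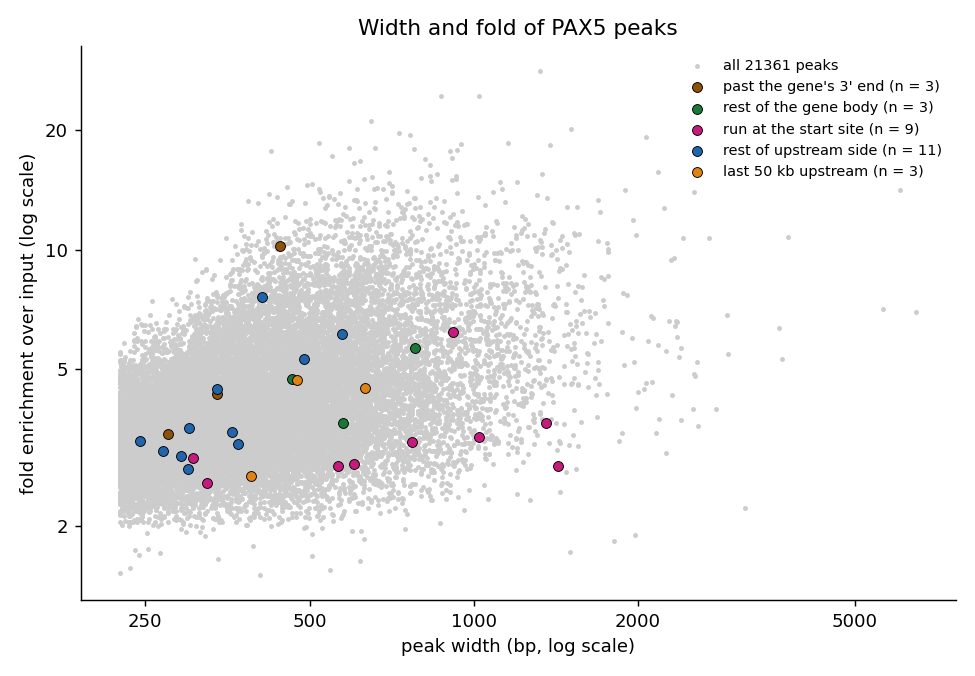
Peak width in bp (x axis, log scale) and fold enrichment (y axis, log scale) for all 21361 peaks in grey and the 29 peaks of the PAX5 window in colour. The 3 start-site peaks of 1021 to 1425 bp have folds of 2.84 to 3.65, below the median of 5.74 for all peaks at least 1000 bp wide.

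Inside the rest of the gene body, 3 peaks were called. The strongest, from 36993816 to 36994594, lay 40.0 kb from the start site with 121 reads (100 to 145). Its pileup of 66.6 over a background of 11.0 gave a fold of 5.63 (4.69 to 6.71), rank 3664. It was 779 bp wide. Its neighbour at 36997520, 3.50 kb closer to the start site, had 54 reads, with a pileup of 29.7 over a lower background of 5.51 and a fold of 4.72 (3.58 to 6.11), so that the read intervals of the 2 peaks did not overlap and the fold intervals did.

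The third, at 36949635, lay 84.4 kb inside with 58 reads, a pileup of 31.9 over a background of 8.0, a fold of 3.66 (2.80 to 4.69) and a width of 577 bp. Between this peak and the 3′ end no peak was called. The gap to the next summit, just past the gene, was 119 kb, the longest of the window, and 78.0% of all gaps between neighbouring peaks on assembled chromosomes were shorter. All 9 peaks of the body thus lay within 84.4 kb of the start site, in a list that holds only sites past the caller's threshold.

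The site of highest fold in the window lay past the end of the gene. This peak, from 36828528 to 36828968, had its summit at 36828751, 4.25 kb past the 3′ end. It held 92 reads (74.2 to 113). Its pileup of 50.6 stood over a background of 4.05, the lowest of the 29, with a fold of 10.2 (8.28 to 12.5) and a −log10 q of 32.8. Its rank was 334 by fold and 3887 by pileup, so that its place depended on the low background. At the bounds of its counting interval the rank by fold would be 108 or 868.

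A weak peak lay 1.88 kb from it, at 36830628, with 31 reads, the fewest of the window, a pileup of 17.1 over 4.28 and a fold of 3.42. The first peak of the window, at 36808506, held 100 reads, and its pileup of 55.0 over a background of 12.0 gave a fold of 4.31. Reads at this peak and at the 10.2-fold peak overlapped in their counting intervals, while their backgrounds differed. Similar numbers of ChIP reads therefore stood beside different folds at these sites.

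Upstream of the run, towards and across the ZCCHC7 side, 11 peaks had summits between 37.08 and 37.30 Mb. They are not assigned to ZCCHC7 or its parts, since an hg19 annotation was not used here. From the run outwards, the first 5, at 37079542, 37120756, 37141218, 37187832 and 37188325 had 50 to 62 reads and folds of 2.79 to 3.46. The last 2 of these had summits 493 bp apart. A strong site followed at 37197299.

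This peak, from 37197093 to 37197666 and 163 kb upstream of the start site, had the highest read count of the window. It held 180 reads (155 to 208). Its pileup of 99.05 stood over a background of 15.3, also the highest of the 29, with a fold of 6.14 (5.28 to 7.09). Its rank was 361 by pileup, 767 by −log10 q (41.7) and 2756 by fold. A weaker peak at 37227869 with 53 reads and a fold of 3.02 separated it from the next group.

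That group held 4 peaks within 18.4 kb, from 250.2 to 268.5 kb upstream. The peak from 37294093 to 37294501 led it with 164 reads (140 to 191). Its pileup of 90.2 over a background of 11.0 gave a fold of 7.60 (6.50 to 8.85), the second highest of the window. Its −log10 q of 45.6 was the highest of the 29 (rank 625), and its ranks were 555 by pileup and 1215 by fold. Its fold interval overlapped that of the 10.2-fold peak past the 3′ end, so the order of these 2 by fold was not resolved.

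The other members of the group were the peak at 37284161 with 116 reads (95.9 to 139) and a fold of 5.29, that at 37290539 with 64 reads and a fold of 3.54, and that at 37302538 with 97 reads and a fold of 4.44. Their pileups of 63.8, 35.2 and 53.4 stood over backgrounds between 9.23 and 11.3. Across the group the reads varied more than the background did, so that the order by fold was also the order by reads.

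The last 50 kb of the window, the distal stretch, held 3 peaks within 5.14 kb, 336 to 341 kb upstream of the start site. The peak from 37369522 to 37370154 was 633 bp wide with 96 reads (77.8 to 117), a pileup of 52.8 over a background of 11.0 and a fold of 4.49 (3.65 to 5.46), rank 7326. The peak from 37374848 to 37375321, the last of the window, had 87 reads (69.7 to 107), a pileup of 47.9 over 9.45 and a fold of 4.68 (3.77 to 5.75), rank 6511. Between them, the peak at 37371217 had 49 reads and a fold of 2.68 (2.00 to 3.51).

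The outer 2 of the distal peaks were above the list's median fold of 3.89, with counting intervals that include it, and the middle one was below it. None reached a fold of 5. A gap of 67.4 kb with no peak separated them from the group nearer the gene. Just beyond the window, 9.37 kb past its border, a peak from 37408850 to 37409731 held 162 reads with a fold of 8.19. On the other side, the nearest peak outside, at 36765989, lay 34.0 kb from the border with 100 reads and a fold of 4.00. The window thus ends between distal peaks of moderate fold and a stronger site.

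**Figure D4:**
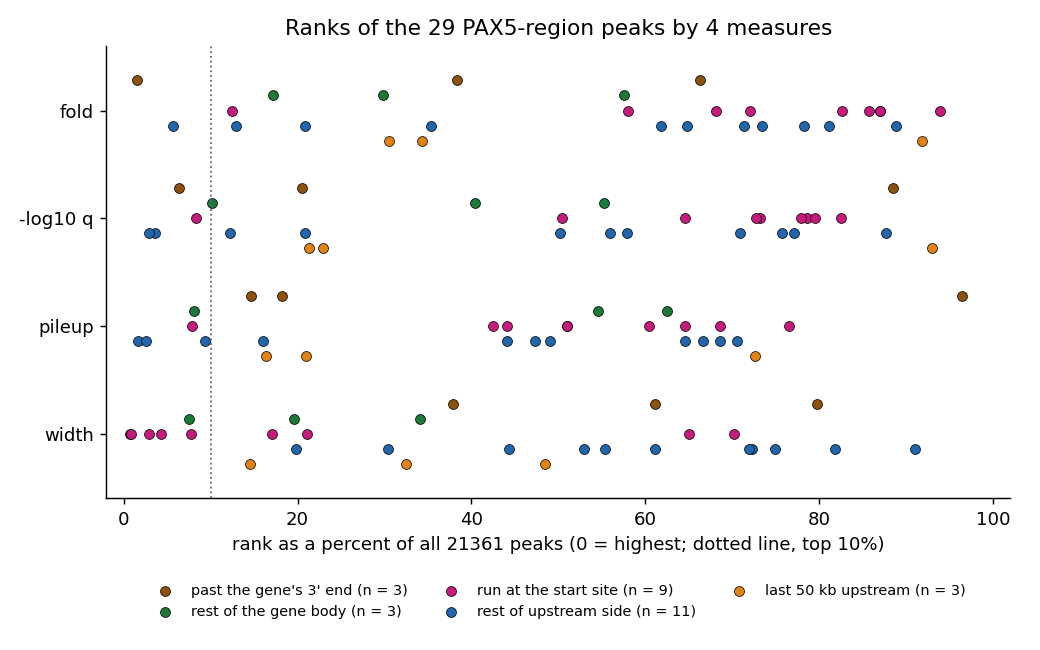
Ranks of the 29 peaks as a percent of all 21361 peaks (x axis, 0 is the highest) by fold, −log10 q, pileup and width (rows), coloured by position. The dotted line marks the top 10%, which 2 peaks reach by fold, 4 by −log10 q, 5 by pileup and 6 by width.

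The place of the locus in the list depended on the measure. In the top 10% of the list stood 2 of the 29 peaks by fold (6.90%), 4 by −log10 q (13.8%), 5 by pileup (17.2%) and 6 by width (20.7%). No peak was in the top 10% by both fold and width, although the peak at 37029403 had rank 2661 by fold and 909 by width. By fold, 18 of the 29 were below the median of the list and 11 above it. Without the start-site run, the other 20 peaks had a median fold of 3.98 and 25% of them reached a fold of 5, the same share as in the whole list. The whole list kept its own runs, so these shares come from unlike sets. All 29 peaks were listed with identical borders in the authors' cleaned list. The share of all peaks kept in that list is not given here, so this does not set the locus apart.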

How the data were processed

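PAX5 ChIP and input DNA of NALM6 cells were compared by the authors. The submitters' processing notes name BWA and the build hg19. Peaks were called with MACS2 2.1.1.20160309 on 1 pooled ChIP alignment against 1 combined control, with reads extended to 225 bp, a q-value threshold of 0.05 and 1 tag kept per position, per the file headers. The number of libraries in the pool is not stated there, and a pool hides their spread. The deposited pileup is a signal, the extended ChIP reads over a summit, multiplied by 0.550 to match the control's depth. The deposited fold is a ratio of pileup to the caller's control background, which takes in windows of 1000 and 10000 bp, per the file headers. The −log10 q deposited by the authors is the caller's own. The deposited cleaned list gives positions only, made by a cleaning step not given in the sources used. All these are the authors' values and serve here only for description and ranks.

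ChIP reads were recovered as pileup divided by the scale, whole within 0.005 pileup units for 100% of peaks, and the background from pileup and fold with a pseudocount of 1 in both. As a check, a Poisson −log10 p was computed from both, and for 100% of peaks it differed from that of the authors by at most 0.05. Read counts and the peak density carry exact Poisson intervals, which cover counting error only. Shares carry Wilson intervals, and the median fold of the locus carries an interval from ranked values. The intervals of density, shares and median treat peaks as independent, and peaks are not replicates. Fold intervals hold the background fixed. Density was taken over the span from first to last summit of each chromosome. On data simulated with the same formulas, the recovery of both was right for 100% of 21361 peaks. This checks the arithmetic only, and not whether the authors' values follow these formulas. Described in full are the 5 highest by fold, the leading peaks by pileup, −log10 q and width, the weakest, the nearest to the start, and the first and last. The window, groups and motifs were chosen with earlier results of these data known. A list of other B-cell genes was not used, since it needs an hg19 annotation. The work used Python 3.11.15 with pandas 2.3.3, numpy 2.4.6, matplotlib 3.10.9 and scipy 1.17.1. Promoter bases are from RefSeq (GRCh38.p14), where PAX5 had 1 entry.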

Additional observations from a re-analysis of the deposited data

How the results depend on the processing

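Of 29 alternative settings, 21 left the value within 1.5 times or within its interval. Some settings, such as another fold threshold or another measure for the rank, changed the quantity itself. The count of 21 is therefore not a measure of stability. The best rank in the window, 334 by fold, was 361 by pileup and 625 by −log10 q, each held by a different peak. Both settings are among the 21, but they do not follow the same peak. The 10.2-fold peak itself had rank 3887 by pileup and 1369 by −log10 q. The 29 peaks became 6 with a fold of at least 5 and 4 in the top 10% by −log10 q, by construction of the stricter thresholds, 22 after merging peaks within 500 bp and 20 without the start-site run. The density ratio of 6.70 stayed between 4.63 and 9.04 in the 5 settings tried. At fold thresholds of 4 and 6 the shares of the 29 were 37.9% and 13.8%, against 46.3% and 13.9% of all peaks. The body's share of 31.0% fell to 17.2% with the start site moved 5 kb downstream and was 41.4% with it moved 5 kb upstream, since the start-site run straddles the border. The size rank of that run, 2, was 1 with gaps of at most 1500 bp, 28 at 500 bp, 20 at 1000 bp and 9 at 5000 bp. Its covered share of 72.7% was 32.9% when only the 3 peaks with a −log10 q of at least 5 counted. Settings on the run were chosen after seeing the data. No paired analysis was possible because there is 1 sample of each kind. Depth limits the order of neighbouring folds, and the spread between libraries is not known.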

Other observations

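The 14 lone peaks of the PAX5 window, those with no other peak within 2000 bp, had a median fold of 4.37, a median width of 385 bp and a median of 75.5 reads. The 15301 lone peaks of the whole list had a median fold of 3.96, a median width of 375 bp and a median of 61 reads. A fold of at least 5 was reached by 4 of the 14 (28.6%) and by 26.1% of all lone peaks. Other runs of at least 7 peaks were found on chromosome 22 from 48970775 to 48985976 (8 peaks, 78.9% covered, median fold 3.40), chromosome 17 from 79367698 to 79376536 (8 peaks, 45.0% covered, median fold 3.49) and chromosome 14 from 106320704 to 106329313 (7 peaks, 34.7% covered, median fold 3.22).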
